A study of Mus musculus with 6 samples.

Results

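The inhibitory myeloid receptors Lilrb4a, Pirb, Sirpa and Cd300a and the macrophage surface markers Siglec1, Adgre1, Mrc1, Cd163, Cd53 and Cd52 were followed in C2C12 cells whose Myog enhancer En5 had been repressed. These 10 genes were a named set, among 23231 genes that had a count in at least 1 library, of which 14378 passed the filter on low counts and were tested. Lilrb4a and Adgre1 were picked on their higher level in dCas9-KRAB-En5 cells in these same libraries, so their differences are given as a description and without a test. Of the 10 genes, 8 had counts and passed the filter on low counts, and 2, Mrc1 and Cd163, had 0 counts in every library.

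C2C12 cells are mouse myoblasts of an established line, which form multinucleate myotubes in low serum. Both groups carried dCas9-KRAB, a nuclease-dead Cas9 fused to a repressor domain, expressed from the hUbC promoter of a lentivirus, and both were selected with puromycin and kept for 5 days in differentiation medium with horse serum. The 3 dCas9-KRAB libraries had no sgRNA, and the 3 dCas9-KRAB-En5 libraries had in addition 2 sgRNAs against the enhancer Myog-En5, so the presence of an sgRNA and its target could not be told apart. Cells were transduced and selected as populations, and nothing in the labels says whether replicates were separate cultures, so p-values measure only the spread between these libraries.

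In macrophages, inhibitory receptors carry tyrosine motifs in their cytoplasmic tails. Once phosphorylated by Src family kinases, these recruit the phosphatases SHP-1 (Ptpn6), SHP-2 (Ptpn11) or SHIP-1 (Inpp5d), which dampen signals from activating receptors. Many inhibitory receptors have close paralogs that lack these motifs and pair with activating adaptors instead. Adgre1 encodes F4/80, the adhesion receptor used to mark mouse macrophages, Siglec1 encodes sialoadhesin, Mrc1 and Cd163 encode endocytic receptors for mannose-bearing glycoproteins and for the haptoglobin-hemoglobin complex, Cd53 encodes a leukocyte tetraspanin and Cd52 a small glycosylphosphatidylinositol-anchored glycoprotein.

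The designed sgRNA targets define the groups and are shown with the PAM in capitals. Both lay on GRCm38 chromosome 1, at chr1:134283252-134283274 on the positive strand and chr1:134283558-134283580 on the negative strand. They overlapped 0 annotated genes and ended 6715 and 6409 bases before the annotated start of Myog.
Myog-En5-sgRNA1: gaaggggttactgtcggcagAGG
Myog-En5-sgRNA2: gaccggaagattgaaccactGGG

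The promoters of 3 of the genes with different levels are shown, those of Cd300a (lower in dCas9-KRAB-En5), Cd53 (higher in 2 of the 3 dCas9-KRAB-En5 libraries) and Mrc1 (0 counts). Capitals mark GAGGAA and its reverse complement TTCCTC, the core letters of sites bound by PU.1, the macrophage transcription factor encoded by Spi1. Each window runs from 250 bases before to 50 bases after the RefSeq start, in GRCm38.p6, at chr11:114889791-114890090 on the plus strand for Cd300a, chr3:106790100-106790399 on the minus strand for Cd53 and chr2:14229164-14229463 on the plus strand for Mrc1.
Cd300a: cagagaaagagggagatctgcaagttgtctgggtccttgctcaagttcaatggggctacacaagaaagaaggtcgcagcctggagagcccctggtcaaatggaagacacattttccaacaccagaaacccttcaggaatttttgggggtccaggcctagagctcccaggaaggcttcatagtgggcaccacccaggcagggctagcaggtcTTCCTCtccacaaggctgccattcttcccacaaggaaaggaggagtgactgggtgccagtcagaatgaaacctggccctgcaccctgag
Cd53: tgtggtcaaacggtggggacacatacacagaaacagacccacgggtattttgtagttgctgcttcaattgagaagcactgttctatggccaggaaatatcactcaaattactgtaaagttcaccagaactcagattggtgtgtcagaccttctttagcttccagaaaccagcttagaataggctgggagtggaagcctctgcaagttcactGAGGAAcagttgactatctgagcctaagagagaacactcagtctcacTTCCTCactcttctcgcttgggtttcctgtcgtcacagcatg
Mrc1: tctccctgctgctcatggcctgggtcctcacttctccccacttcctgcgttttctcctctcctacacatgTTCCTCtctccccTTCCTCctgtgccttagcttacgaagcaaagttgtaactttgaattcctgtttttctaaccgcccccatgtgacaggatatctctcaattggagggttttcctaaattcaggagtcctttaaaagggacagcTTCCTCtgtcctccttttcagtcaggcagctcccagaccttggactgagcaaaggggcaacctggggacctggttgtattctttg

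RefSeq promoter windows were matched for 5 of the 10 genes. The letters occurred 3 times in the Pirb window, 2 times in that of Cd53, 3 times in that of Mrc1, 1 time in that of Cd300a and 0 times in that of Cd163. They occurred in 28.3% of 32851 promoter windows and at least 2 times in 4.82% of them. The Mrc1 window held as many matches as the Pirb window, and Mrc1 had 0 counts. Binding of PU.1 to these windows was not tested. Spi1 itself was between 145 and 283 TPM in the dCas9-KRAB libraries and between 175 and 213 TPM in the dCas9-KRAB-En5 libraries. TPM is the count per gene length, scaled to 1000000 per library.

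Library totals ranged from 31831093 to 73988425 counts. The counts of Myog, the gene next to the repressed enhancer, were 43211, 68488 and 74845 in the dCas9-KRAB libraries and 12, 0 and 0 in the dCas9-KRAB-En5 libraries. Of 13 myoblast and myotube markers, 11 were called lower, and Itga7 and Cdh15 were not called. The summed level of all 13 was 7348 to 12337 TPM in dCas9-KRAB and 21.6 to 47.4 TPM in dCas9-KRAB-En5. The sum was thus far lower in dCas9-KRAB-En5 cells, but not every marker was nearly absent. Itga7 was still at 9.75, 9.01 and 27.7 TPM and Des at 7.87, 5.31 and 13.9 TPM in dCas9-KRAB-En5 replicates 1 to 3. dCas9-KRAB-En5 replicate 3 stood apart from the other libraries. It listed 13991 genes against 17084 to 19395 elsewhere, 25.8% of its counts came from ribosomal protein genes against 10.8% to 19.4%, and its normalization factor was 0.730 against 0.923 to 1.22. Fold changes are therefore given with and without it.

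Calls required an adjusted p no larger than 0.01 and a log2 fold change of 1 or more in size, in edgeR's quasi-likelihood test of dCas9-KRAB-En5 over dCas9-KRAB with Benjamini-Hochberg adjustment over all genes tested. At these cutoffs 1.52% of all genes tested were called higher and 4.67% lower. Among the 8 detected genes 2 were called higher, Lilrb4a and Adgre1, for which they had been picked, and 0 were called lower. Only the 6 genes that were not picked are set beside the shares over all genes. Of these, 0 were called higher and 0 lower. At an unadjusted p under 0.05 in the same test, 2 of them, Sirpa and Cd53, were higher and 1, Cd300a, was lower, beside 16.6% higher and 16.3% lower of all genes tested. DESeq2 called 0 of them higher and 0 lower, beside 5.88% and 8.66% of the genes to which it gave an adjusted p. The 2 picked genes were higher by each of these rules, from which nothing is read. The TPM of Lilrb4a and Adgre1 lay higher in every dCas9-KRAB-En5 library than in every dCas9-KRAB library, as did 7.76% of all genes tested, from which nothing is read because these genes were picked on that difference. The TPM of Cd300a and Cd52 lay lower without overlap, 2 of the 6 genes that were not picked, beside 19.7% of all genes tested. In these bulk samples fewer cells of a type and less RNA per cell cannot be told apart.

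**Figure D1:**
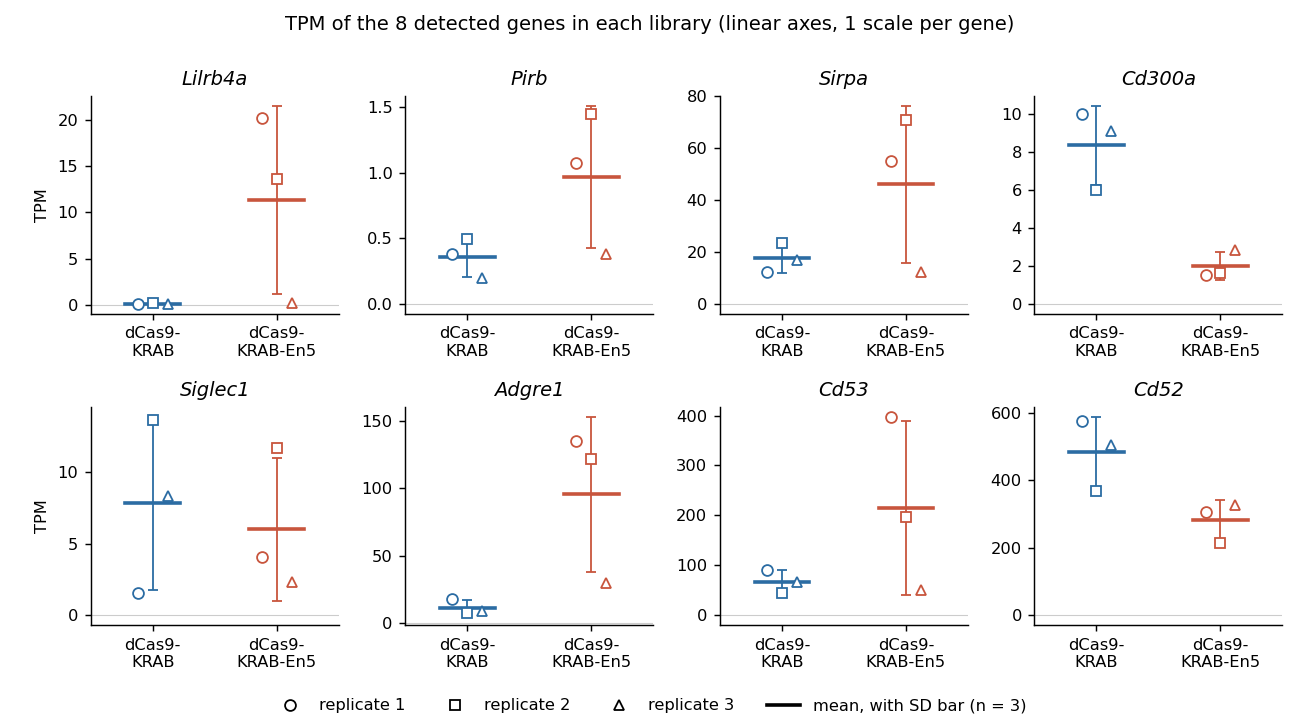
TPM of the 8 detected genes in each library on a linear axis from 0 with 1 scale per gene. Points are libraries, with the symbol giving the replicate number, horizontal lines are means and bars are SDs (n = 3). In dCas9-KRAB-En5 replicate 3 (triangles), Lilrb4a at 0.259 TPM and Sirpa at 12.3 TPM lay near the dCas9-KRAB libraries, whereas Cd300a was lower in all 3 dCas9-KRAB-En5 libraries.

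Lilrb4a encodes an inhibitory receptor of the leukocyte immunoglobulin-like receptor family (GRCm38 chr10:51490956-51496611, plus strand). Replicates 1 to 3 of dCas9-KRAB held 16, 34 and 35 of its counts, or 0.113, 0.174 and 0.150 TPM. In dCas9-KRAB-En5 replicates 1 to 3 it had 2242, 1209 and 31 counts, or 20.2, 13.6 and 0.259 TPM. The higher level lay in 2 libraries, and replicate 3 was just above the dCas9-KRAB range, at 1.78 times its mean. The fitted log2 fold change was 5.78 ± 1.04 (SE), and 6.26 without dCas9-KRAB-En5 replicate 3. Over the annotated transcripts, 47.2% of its 50-base words also occurred in other genes, most of them in Gm49339, which overlaps it on the same strand and had 0 to 18 counts per library. Its counts are therefore uncertain to the extent that shared reads were discarded or split.

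The closest paralog, Lilr4b (the former Lilrb4b, gp49A), which lacks the inhibitory tyrosine motifs, was high in the same 2 libraries. It was at 0.820, 0.835 and 0.760 TPM in dCas9-KRAB replicates 1 to 3 and at 47.2, 30.8 and 1.38 TPM in those of dCas9-KRAB-En5. It was called higher, with a log2 fold change of 4.55 ± 0.82 (SE) and an adjusted p of 0.00425, and 24.1% of its 50-base words also occurred in Lilrb4a. The 3 genes whose log2(TPM + 1) over the 6 libraries was nearest to that of Lilrb4a, after each gene was centred on its mean, were Osbp2, Lrrk2 and Btg1, with root-mean-square distances of 0.108, 0.143 and 0.191. Osbp2, which encodes an oxysterol-binding protein, was at 0.278, 0.290 and 0.326 TPM in dCas9-KRAB and at 23.2, 17.6 and 0.721 TPM in dCas9-KRAB-En5 replicates 1 to 3. Lrrk2, a leucine-rich repeat kinase, was at 26.2, 19.7 and 0.823 TPM in dCas9-KRAB-En5 replicates 1 to 3 and below 1 TPM in the other group, at 0.268 to 0.639 TPM.

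Pirb encodes the paired immunoglobulin-like receptor B, an inhibitory receptor for MHC class I (chr7:3711409-3720391, minus strand). Its level was low throughout, with 46, 83 and 39 counts or 0.379, 0.496 and 0.195 TPM in dCas9-KRAB replicates 1 to 3, and 102, 110 and 39 counts or 1.08, 1.45 and 0.381 TPM in dCas9-KRAB-En5 replicates 1 to 3. The groups overlapped in TPM, since dCas9-KRAB-En5 replicate 3 was at the level of dCas9-KRAB replicate 1, but not in TMM-normalized CPM (counts scaled to 1000000 per library), which were 0.571 to 1.21 in dCas9-KRAB and 1.68 to 2.55 in dCas9-KRAB-En5. The log2 fold change was 1.15 ± 0.67 (SE) and Pirb was not called (adjusted p = 0.257), nor without dCas9-KRAB-En5 replicate 3 (1.22, adjusted p = 0.114). Between same-numbered libraries, whose deviations were correlated, Pirb in dCas9-KRAB-En5 was 2.84, 2.93 and 1.96 times that in dCas9-KRAB. Of its 50-base words 34.0% occurred in other genes, so reads of the Pira family cannot be separated from it with certainty. The activating paralogs Pira2 and Lilra6 reached at most 0.252 and 0.387 TPM and were not called.

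Sirpa encodes SIRP-alpha, the receptor for the "do not eat me" ligand CD47 (chr2:129592835-129632228, plus strand). It was at 12.2, 23.3 and 17.0 TPM in dCas9-KRAB replicates 1 to 3 (1626, 4276 and 3739 counts) and at 55.0, 71.0 and 12.3 TPM in dCas9-KRAB-En5 replicates 1 to 3 (5726, 5909 and 1382 counts). The level was high in dCas9-KRAB-En5 replicates 1 and 2, whereas replicate 3 lay at the low end of the other group. The log2 fold change was 1.03 ± 0.47 (SE) and did not pass the test (adjusted p = 0.149), nor without dCas9-KRAB-En5 replicate 3 (1.23, adjusted p = 0.0168). Cd47 was at 47.3, 33.6 and 41.7 TPM in dCas9-KRAB and 79.4, 58.1 and 18.8 TPM in dCas9-KRAB-En5 replicates 1 to 3, with a log2 fold change of 0.02 ± 0.46 (SE) and an adjusted p of 0.984. The activating paralogs Sirpb1a, Sirpb1b and Sirpb1c had at most 17 counts in any library.

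Cd300a encodes an inhibitory receptor for phosphatidylserine and phosphatidylethanolamine (chr11:114890041-114904654, plus strand). It was at 9.99, 6.02 and 9.09 TPM in dCas9-KRAB replicates 1 to 3 (1285, 1067 and 1929 counts) and at 1.50, 1.62 and 2.86 TPM in dCas9-KRAB-En5 replicates 1 to 3 (151, 130 and 310 counts). All 3 dCas9-KRAB-En5 libraries were lower than all 3 dCas9-KRAB libraries, with means of 1.99 ± 0.751 and 8.37 ± 2.09 TPM (SD, n = 3). The log2 fold change was -1.94 ± 0.63 (SE), which missed the threshold in the fit with group alone (adjusted p = 0.0556). Cd300a was called lower when the replicate number entered the fit as a block, at a log2 fold change of -2.24 and an adjusted p of 0.00671, in a fit that called 3.94% of all genes higher and 6.79% lower. Without dCas9-KRAB-En5 replicate 3 it was also called lower, at -3.07 and an adjusted p of 0.000757, where 11.7% of all genes were called higher and 14% lower.

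Other genes of the Cd300 family named here had positive fold changes. Cd300ld, which pairs with activating adaptors, was at 6.70, 4.19 and 4.46 TPM in dCas9-KRAB and at 43.5, 35.8 and 12.8 TPM in dCas9-KRAB-En5 replicates 1 to 3, and was called higher (log2 fold change 2.28 ± 0.46 SE, adjusted p = 0.00732). Cd300lb, Cd300c2, Cd300ld3 and Cd300lg had log2 fold changes of 1.37, 1.36, 2.16 and 3.17 and were not called, with adjusted p between 0.0104 and 0.0820, and their TPM did not overlap between the groups. Under the replicate block Cd300lg was called higher (adjusted p = 0.00502). The inhibitory Cd300lf had a log2 fold change of 0.42 ± 0.55 (SE) and an adjusted p of 0.630. Cd300a shared 3.45% of its 50-base words with other genes, most of them with Cd300c2, and the counts of all Cd300 genes summed together had a log2 fold change of 1.15 (adjusted p = 0.0989), opposite in sign to that of Cd300a.

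Siglec1, which encodes the sialic acid-binding receptor sialoadhesin (chr2:131069220-131086765, minus strand), varied more within the groups than between them. It was at 1.56, 13.6 and 8.33 TPM in dCas9-KRAB replicates 1 to 3 (303, 3645 and 2664 counts) and at 4.06, 11.7 and 2.29 TPM in dCas9-KRAB-En5 replicates 1 to 3 (614, 1417 and 375 counts). The highest and lowest library differed 8.72-fold in dCas9-KRAB and 5.10-fold in dCas9-KRAB-En5, with replicate 2 the highest in both. The dCas9-KRAB-En5 library was 2.60 times the dCas9-KRAB library for replicate 1, 0.858 times for replicate 2 and 0.275 times for replicate 3. The log2 fold change was -0.68 ± 0.65 (SE), with an adjusted p of 0.499, and -0.62 without dCas9-KRAB-En5 replicate 3 (adjusted p = 0.504).

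Adgre1, encoding F4/80 (chr17:57358691-57483527, plus strand), was at 17.7, 7.62 and 9.09 TPM in dCas9-KRAB replicates 1 to 3 (1552, 924 and 1318 counts) and at 135, 122 and 29.6 TPM in dCas9-KRAB-En5 replicates 1 to 3 (9272, 6695 and 2193 counts). All 3 dCas9-KRAB-En5 libraries were above all 3 dCas9-KRAB libraries, and replicate 3, the lowest of them, was 2.58 times the dCas9-KRAB mean. The fitted log2 fold change was 2.68 ± 0.54 (SE), and 2.84 without dCas9-KRAB-En5 replicate 3. None of its 50-base words occurred in another gene. The nearest genes in pattern, by the same distance over the 6 libraries, were Tnfrsf26 (0.225), Tmem38b (0.227) and Gm3555 (0.268). Tmem38b, an intracellular cation channel, was at 34.8, 21.0 and 18.3 TPM in dCas9-KRAB and at 378, 306 and 83.6 TPM in dCas9-KRAB-En5 replicates 1 to 3. Its relative Adgre5, which encodes CD97, was lower in dCas9-KRAB-En5, at 1.23, 0.754 and 0.384 TPM against 8.59, 22.6 and 14.1 TPM (log2 fold change -4.46 ± 0.55 SE, adjusted p = 0.000342).

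Mrc1 (chr2:14229392-14332057, plus strand) and Cd163 (chr6:124304656-124330527, plus strand), the endocytic receptors that mark many tissue macrophages, had 0 counts in all 6 libraries. A count of 0 allows up to 3 counts per library, which for Mrc1 is between 0.0105 and 0.0278 TPM and for Cd163 between 0.0123 and 0.0324 TPM, for counting error only. Of 26 other scavenger and lectin receptors 7 were also at 0 in every library. Among the 17 of them that were tested, 2 were called higher, the C-type lectins Clec4d and Clec4e (Mincle), and 4 were without dCas9-KRAB-En5 replicate 3. Clec4d was at 16.5, 7.95 and 9.97 TPM in dCas9-KRAB and 215, 82.5 and 104 TPM in dCas9-KRAB-En5 replicates 1 to 3 (log2 fold change 3.43 ± 0.59 SE, adjusted p = 0.00322). Clec4e was at 6.81, 2.79 and 3.29 TPM against 86.6, 25.3 and 19.1 TPM (3.07 ± 0.63 SE, adjusted p = 0.00759). The list had a median log2 fold change of 0.11, beside 0.08 over all genes tested.

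Cd53 (chr3:106759921-106790149, minus strand) was at 90.6, 43.5 and 65.5 TPM in dCas9-KRAB replicates 1 to 3 (4285, 2834 and 5106 counts) and at 398, 198 and 50.5 TPM in dCas9-KRAB-En5 replicates 1 to 3 (14679, 5837 and 2014 counts). As with Sirpa, replicates 1 and 2 were above the dCas9-KRAB range and replicate 3 within it. The log2 fold change was 1.29 ± 0.57 (SE) and did not pass the test (adjusted p = 0.139), nor without dCas9-KRAB-En5 replicate 3 (1.55, adjusted p = 0.0229). Of 15 other adhesion receptors and tetraspanins tested, 0 were called higher and 3 lower, Adgre5 and the tetraspanins Tspan9 and Tspan32. Tspan32 was at 8.02, 8.05 and 7.94 TPM in dCas9-KRAB and at 0.0227, 0.0189 and 0 TPM in dCas9-KRAB-En5, and Tspan9 at 6.68, 24.9 and 15.1 TPM against 1.14, 1.09 and 1.07 TPM. The list's count of lower genes was 6 under the replicate block, adding the broadly expressed tetraspanins Cd63, Cd82 and Cd151, and 8 without dCas9-KRAB-En5 replicate 3. Its median log2 fold change was -0.82. Cd37 was at 34.6, 88.2 and 73.7 TPM in dCas9-KRAB and at 192, 208 and 157 TPM in dCas9-KRAB-En5 replicates 1 to 3. It was not called (log2 fold change 1.44, adjusted p = 0.0716). Cd9 was called higher without dCas9-KRAB-En5 replicate 3 (1.62, adjusted p = 0.00293).

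Cd52 (chr4:134082448-134095082, minus strand) had the highest median level of the set in both groups, although Cd53 exceeded it in dCas9-KRAB-En5 replicate 1. It was at 576, 367 and 502 TPM in dCas9-KRAB replicates 1 to 3 (18545, 16304 and 26709 counts) and at 304, 213 and 325 TPM in dCas9-KRAB-En5 replicates 1 to 3 (7648, 4290 and 8839 counts). The dCas9-KRAB-En5 libraries were all lower in TPM, with means of 281 ± 59.6 against 482 ± 106 TPM (SD, n = 3), but the groups overlapped after TMM normalization, where dCas9-KRAB-En5 replicate 3 stood at 381 CPM within the 238 to 445 of dCas9-KRAB. The log2 fold change was -0.74 ± 0.56 (SE) and did not pass the test (adjusted p = 0.389). Without dCas9-KRAB-En5 replicate 3 it was -1.52, also short of the threshold (adjusted p = 0.0133). Crybg2 overlaps Cd52 on the opposite strand and holds 8.89% of its 50-base words, and whether counting used the strand is not given in the sources used here.

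In dCas9-KRAB the order of median levels was Cd52, Cd53, Sirpa, Cd300a, Adgre1, Siglec1, Pirb and Lilrb4a. The range of Adgre1 overlapped those of Cd300a and Siglec1, and no other neighbours in that order overlapped. In dCas9-KRAB-En5 it was Cd52, Cd53, Adgre1, Sirpa, Lilrb4a, Siglec1, Cd300a and Pirb. There, each gene's range overlapped that of the next from Cd52 down to Cd300a, and only Cd300a and Pirb were separated. In dCas9-KRAB-En5 the mean of replicates 1 and 2 was 3.32 to 65.4 times the level of replicate 3 for Lilrb4a, Pirb, Sirpa, Siglec1, Adgre1 and Cd53, whereas it was 0.546 times for Cd300a and 0.795 times for Cd52.

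**Figure D2:**
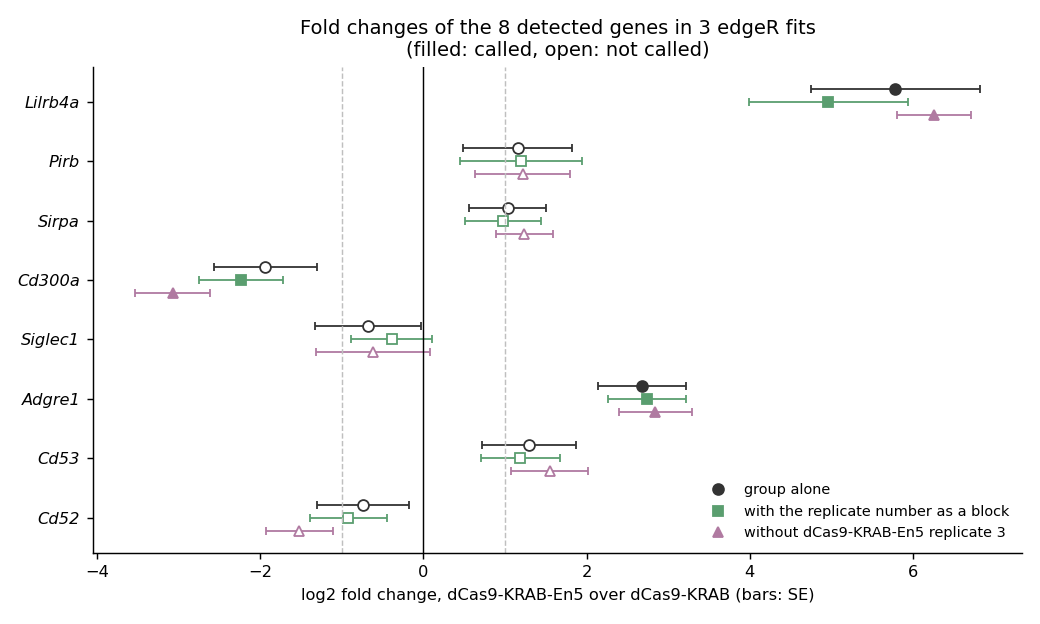
Log2 fold change of the 8 detected genes, dCas9-KRAB-En5 over dCas9-KRAB, in 3 edgeR fits, with SE bars. Filled symbols passed both cutoffs and dashed lines mark a log2 fold change of 1 in size. Cd300a was at -1.94 with group alone, -2.24 under the replicate block and -3.07 without dCas9-KRAB-En5 replicate 3.

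Macrophage genes outside the set were present in both groups. Of 20 macrophage reference genes, 13 were at or above 10 TPM in every library, among them Csf1r, the receptor for macrophage colony-stimulating factor, and Cd68, a lysosomal glycoprotein. Their summed level was 7500 to 9399 TPM in dCas9-KRAB and 13892 to 19545 TPM in dCas9-KRAB-En5, and lysozyme (Lyz2) made up 25.3% to 51.2% and 49.9% to 67.6% of it. C1qa and C1qc, subunits of complement C1q, and Cd84 had at most 20 counts in any library. Of the 17 tested, 0 passed both cutoffs in edgeR, 5 were higher and 1 lower at an unadjusted p under 0.05, and DESeq2 called 2 higher and 0 lower, to be set against the shares over all genes given above. Under the replicate block 1 was called higher, and 3 were without dCas9-KRAB-En5 replicate 3, where 2 were called lower. The part that this shift had in the levels of the set was not tested, and the levels were also expressed per 1000 TPM of these reference genes.

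On that scale Cd300a was at 1.06, 0.802 and 1.10 in dCas9-KRAB and at 0.0770, 0.116 and 0.158 in dCas9-KRAB-En5, for replicates 1 to 3. The difference in mean log2 ratio was -3.12, larger than the SDs of 0.25 and 0.52 within the groups, with an exact permutation p of 0.1, the smallest that 3 against 3 libraries can give. Cd52 was at 61.3, 48.9 and 60.8 against 15.6, 15.3 and 18.0, a difference of -1.80 with SDs of 0.18 and 0.13 and again the smallest p of 0.1 (exact permutation test, two-sided). For these genes dCas9-KRAB-En5 replicate 3 lay close to the other 2 libraries of its group. Pirb, Sirpa, Siglec1 and Cd53 overlapped between the groups, with differences of 0.32, 0.08, -1.26 and 0.29 and exact permutation p of 0.8, 1, 0.4 and 0.8. Leaving out 1 library moved these differences to between -0.22 and 0.93, -0.55 and 0.91, -2.27 and -0.54, and -0.27 and 1.16, and without dCas9-KRAB-En5 replicate 3 they were 0.93, 0.91, -0.69 and 1.16. Those of Cd300a and Cd52 were -3.37 and -1.88 without it. With Benjamini-Hochberg adjustment over these 6 genes, the smallest p was 0.3. Lilrb4a was at 0.0120, 0.0232 and 0.0181 against 1.04, 0.982 and 0.0144, and Adgre1 at 1.88, 1.02 and 1.10 against 6.91, 8.78 and 1.64, so that replicate 3 of dCas9-KRAB-En5 lay within the dCas9-KRAB range for both. With Lyz2 left out of the reference, or with the median of the reference genes in place of their sum, all 3 dCas9-KRAB-En5 libraries were above all 3 dCas9-KRAB libraries for both genes. The differences of Pirb, Sirpa, Siglec1 and Cd53 became 0.96, 0.72, -0.62 and 0.93 with Lyz2 left out. Against the median they were 0.55, 0.32, -1.02 and 0.53, and the groups overlapped with either reference.

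**Figure D3:**
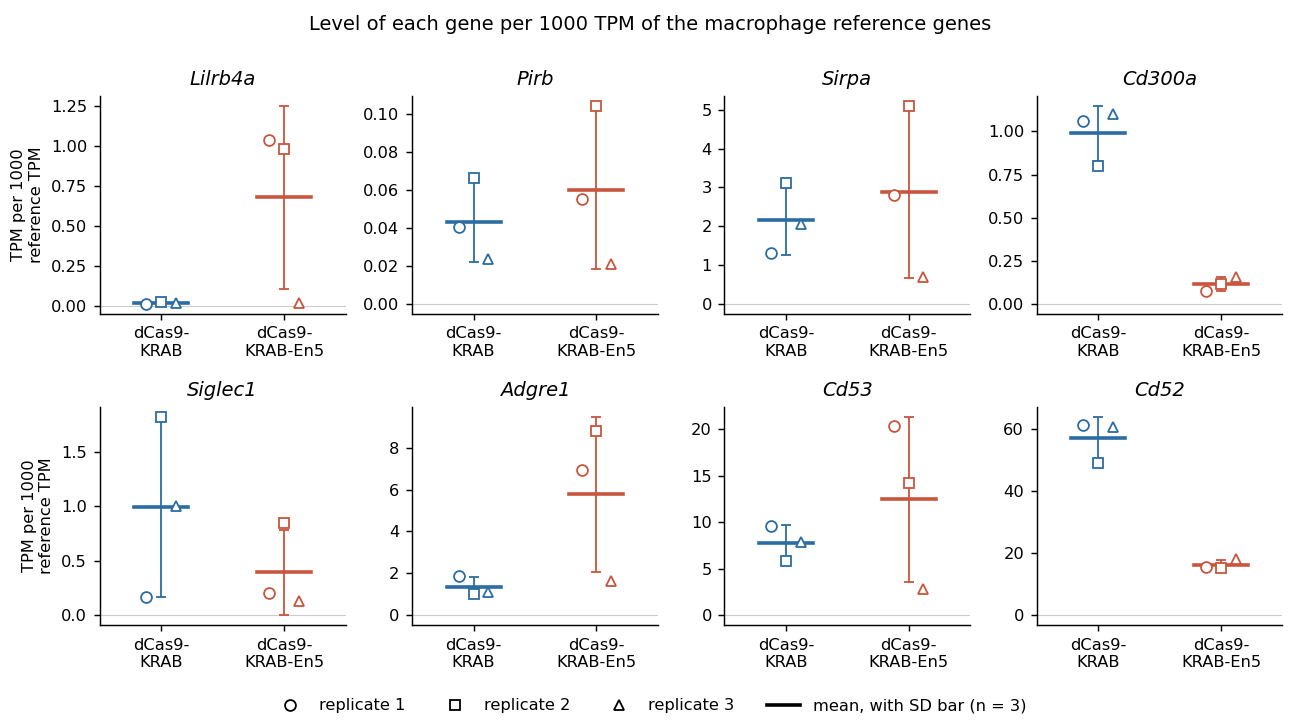
Level of each gene per 1000 TPM of the summed macrophage reference genes, by library, on linear axes from 0, with means and SD bars (n = 3). Cd300a, between 0.802 and 1.10 in dCas9-KRAB and between 0.0770 and 0.158 in dCas9-KRAB-En5, and Cd52 were separated between the groups, while the other 6 genes overlapped.

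The inhibitory pathway around these receptors was described with lists of related genes. Of 17 other inhibitory receptors tested, 15 had a positive fold change, beside 7522 of all 14378 genes tested. The list's median was 1.08, and 1, Lilr4b, was called higher. Lilr4b stood in that list by its former name and is not itself an inhibitory receptor, since it lacks the motifs. Havcr2, which encodes the checkpoint receptor TIM-3, was not called with group alone but was called higher under the replicate block (log2 fold change 2.71, adjusted p = 0.00327), at 57.2, 34.9 and 2.38 TPM in dCas9-KRAB-En5 replicates 1 to 3 against 1.61 to 3.44 TPM. The list's count of higher genes was thus 2 with the block, and it was 4 without dCas9-KRAB-En5 replicate 3. Of all genes, 3.94% and 11.7% were called higher in these fits. Clec12a and Siglece had negative fold changes. Clec12a was at 2.59, 2.27 and 1.19 TPM in dCas9-KRAB-En5 replicates 1 to 3 against 8.17, 3.88 and 5.75 TPM. It was not called with group alone (log2 fold change -1.79, adjusted p = 0.0289). Without dCas9-KRAB-En5 replicate 3 it was the 1 gene of the list called lower (-1.93, adjusted p = 0.00882). Of 21 genes listed as activating paralogs 15 were matched to a gene and 8 tested, with a median of 1.76. Cd300ld was called higher, joined by Cd300lg with the block, and Siglech lower, the latter with 0 counts in all 3 dCas9-KRAB-En5 libraries against 3.68, 2.09 and 3.01 TPM in dCas9-KRAB. Whether Cd300lg pairs with an activating adaptor was not examined here.

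Downstream of the receptors, the phosphatases were not called. Ptpn6 was at 151, 278 and 236 TPM in dCas9-KRAB and 275, 380 and 118 TPM in dCas9-KRAB-En5 replicates 1 to 3 (log2 fold change -0.05 ± 0.45 SE, adjusted p = 0.950). Ptpn11 had a log2 fold change of 0.34 ± 0.52 (SE) and Inpp5d of 1.38 ± 0.53 (SE), with adjusted p of 0.679 and 0.0950. Of 15 signalling genes tested 1 was called higher, Fyb, the adaptor ADAP, at 44.9, 49.7 and 6.61 TPM against 2.16, 4.60 and 1.58 TPM (3.23 ± 0.58 SE, adjusted p = 0.00406). The median was 0.30. Of 11 ligand genes tested, with a median of -0.53, 0 passed both cutoffs in edgeR, 0 were higher and 4 lower at an unadjusted p under 0.05, and DESeq2 called 1 lower, beside the same shares over all genes. The count of lower ligand genes was 3 without dCas9-KRAB-En5 replicate 3.

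**Figure D4:**
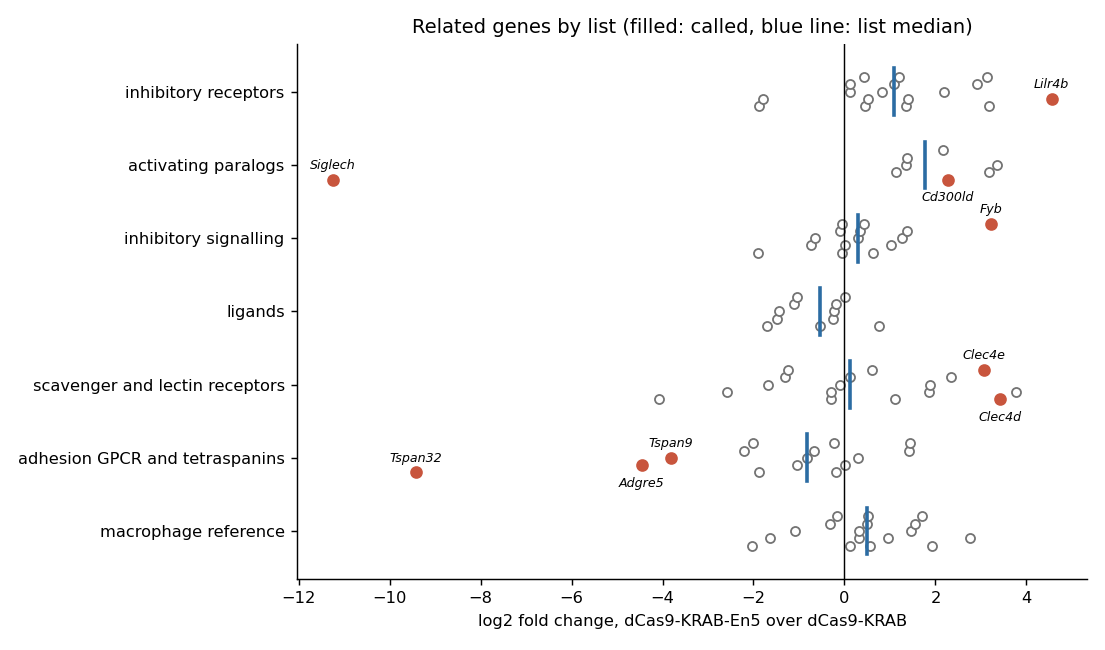
Log2 fold change of every tested gene of 7 lists, dCas9-KRAB-En5 over dCas9-KRAB, with called genes filled and named and the list median as a blue line. The medians ran from -0.82 for adhesion receptors and tetraspanins to 1.76 for activating paralogs, and most genes were not called.

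Markers of other blood cells and of fibroblasts were measured in the same way. Of 10 dendritic cell markers 6 were tested, with Ccr7 called higher and Siglech lower and with summed levels of 58.2 to 81.8 TPM in dCas9-KRAB and 50.5 to 371 TPM in dCas9-KRAB-En5. Cd83 alone was at 313 TPM in dCas9-KRAB-En5 replicate 1, and Flt3, Xcr1 and Clec9a had at most 11 counts in any library. Neutrophil markers summed to at most 7.68 and 12.5 TPM in the 2 groups. Of the 2 tested, S100a8 had a log2 fold change of 5.11 and Camp of -2.94. In edgeR neither was called, and DESeq2 called 1 higher and 1 lower. Camp was called lower without dCas9-KRAB-En5 replicate 3 (adjusted p = 0.00283). T cell markers summed to at most 9.83 and 5.33 TPM, and 5 of the 10 T cell genes, Cd3e, Cd3g and Cd8a among them, were at 0 counts in every library. Lck was at 6.94 to 7.60 TPM in dCas9-KRAB and 3.24 to 5.11 TPM in dCas9-KRAB-En5, and Trac at 0.573 to 2.06 TPM and 0 counts, called lower without dCas9-KRAB-En5 replicate 3. B cell markers summed to at most 207 and 162 TPM, nearly all of it Ighm, with Ms4a1 at 0 counts and Pax5 called lower. Of 10 osteoclast markers 5 were tested, all with a positive fold change and a median of 1.81. The others, Ctsk and Calcr among them, had at most 8 counts in any library. The list summed to 5.27 to 12.4 TPM in dCas9-KRAB and 13.8 to 58.9 TPM in dCas9-KRAB-En5. Called higher was 1, Acp5, and the count was 2 under the replicate block and 3 without dCas9-KRAB-En5 replicate 3. Fibroblast markers summed to 70.4 to 206 TPM and 20.9 to 39.3 TPM, with 5 of 6 tested genes at a negative fold change, Col1a1 called lower and 2 genes lower in either of those fits. The part of these markers in the levels of the set was not tested.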

How the data were processed

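RNA-Seq of 6 libraries was used, with groups and replicate numbers from the sample labels. Per the paper's methods, the authors aligned reads with HISAT2 2.2.1 to GRCm38 and deposited raw counts per gene from featureCounts. The authors also deposited TPM for the same genes. The annotation release and strand setting are not given in the sources used here. Implied gene lengths lay within 1% of the GENCODE M21 exon length for 98.7% of 10782 genes. A gene not listed in a library was taken as 0, and 23155 of 23231 genes were matched to a symbol.

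Counts were compared with edgeR 4.0.16 in R 4.3.3 (TMM, filterByExpr with a minimum count of 10 and total of 15, quasi-likelihood test, group alone). Alternatives were limma 3.58.1 on log2(TPM) with a pseudocount of 1 or 0.1, DESeq2 1.42.0, other scalings and filters, the replicate block and leaving out each library. Same-numbered libraries of the 2 groups deviated together (correlations across genes of 0.262, 0.214 and 0.290), a hint from the data, since the labels give only the numbers. Replicates of a group differed beyond counting noise (chi-square over degrees of freedom 119.1 or more). Depth gave a floor of 3 counts, or 0.0405 to 0.0942 CPM, which covers counting error only.

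The 10 genes and the lists were chosen with earlier results of these data known. Named were the 10 genes, up to 5 called genes of each list, direct paralogs, the partners Cd47, Ptpn6, Ptpn11 and Inpp5d, Myog, and the 3 genes nearest in pattern to Lilrb4a and to Adgre1. Other genes, such as Spi1, Havcr2 and Cd63, were named after their values were seen. Promoter sequences are from RefSeq and sgRNA targets from the study's oligo list. The planned search of protein motifs was not run, and some results are not reported here.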

Additional observations from a re-analysis of the deposited data

How the results depend on the processing

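All 8 detected genes kept the sign of their log2 fold change in each of the 15 alternatives run for all of them, apart from Cd300a summed with the other Cd300 genes (1.15). The 890 genes called (219 higher, 671 lower) became 586 with total counts only (70 higher, 516 lower), 2198 without the low-count filter (1004 higher), 544 where every library had to hold 10 counts (205 higher), 2390 in DESeq2 (967 higher), 514 in limma on log2(TPM + 1) (32 higher), 1543 with the replicate block (567 higher) and 2449 when an adjusted p up to 0.05 was taken, and ranged from 222 to 3921 when 1 library was left out, the lowest without dCas9-KRAB replicate 1 and the highest without dCas9-KRAB-En5 replicate 3. The calls of Lilrb4a and Adgre1, which were picked on this difference and are followed only as a description, went from 2 to 1 with upper-quartile factors and 0 with total counts only or in limma with either pseudocount, and 0 to 2 with a library left out: 0 without any 1 of the dCas9-KRAB libraries, and 1, Lilrb4a, without dCas9-KRAB-En5 replicate 1 or 2. The 0 called lower became 1, Cd300a, without the low-count filter, with the replicate block and without dCas9-KRAB-En5 replicate 3, a range of 0 to 1. The replicate block changed no other call of the set. Relative to the macrophage reference, the difference of Cd300a became -2.48 with Lyz2 left out of the sum, an alternative chosen after seeing the data, and that of Cd52 became -1.16, and -1.56 against the median of the reference genes. Limma on log2(TPM + 0.1) moved the median fold change of all genes by 0.11 on the log2 scale. With 3 libraries per group and this spread, a gene not called may still differ. The causes were not tested.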
